A study of Homo sapiens with 24 samples.

Results

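The metallothionein genes MT1A, MT1E, MT1F, MT1G, MT1H, MT1M, MT1X and MT2A were followed in cancer cells with and without Ocoxin. These 8 genes were taken by symbol, with earlier results of these data known, from the 58051 genes of the count tables, which hold 21 genes and pseudogenes with a metallothionein symbol in all. Of the 8, 7 could be tested in COAD cells, 7 in PAAD cells, 4 in PRAD cells and 6 in TNBC cells, and the others had too few counts.

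Ocoxin is a commercial nutritional supplement that contains zinc, and the study gave it to established human cancer cell lines before sequencing their polyadenylated RNA. Each cell line had 3 control and 3 Ocoxin libraries, 24 in all, taken after 48 h in medium with 1% fetal bovine serum. COAD was the colorectal adenocarcinoma line SW620 and TNBC the breast cancer line HCC-70, which both received Ocoxin at a dilution of 1:700. PAAD was the pancreatic adenocarcinoma line BxPC-3 at 1:500, and PRAD was the prostate adenocarcinoma line LNCaP at 1:50. Every cancer type was thus represented by 1 cell line, only adhered cells gave RNA, and the labels name a dilution for the control libraries too, so that the letter C or O in the library titles set the group. The study chose each dilution as the approximate 50% inhibitory dose for viability of that line, and by its methods Ocoxin was renewed after 24 h. Nothing in the labels says that replicates came from separate cultures, so the p-values below measure the spread between these libraries, which may be technical.

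Metallothioneins are small proteins rich in cysteine that bind zinc and copper, and also toxic metals such as cadmium, through their thiol groups. Their genes are switched on by the metal-responsive transcription factor MTF1, which senses free zinc and binds short metal response elements in their promoters. Glucocorticoids and oxidants are further inducers. MT2A is the member that most human cells express, and the MT1 genes encode closely related isoforms whose use differs between tissues.

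All 8 genes lie within 76.0 kb of chromosome 16 on hg38, from the start of MT2A at chr16:56608199 to the end of MT1X at chr16:56684196, and 16 of the 21 metallothionein genes and pseudogenes are in that region or beside it on the same chromosome. MT2A comes first, followed by MT1E, MT1M, MT1A, MT1F, MT1G, MT1H and MT1X, and of these MT1G alone is on the minus strand. MT1G spans chr16:56666731-56668065 and MT1F spans chr16:56657694-56660698. Their transcripts are alike enough to share reads, so coding sequences of 4 members are shown, with capitals at each base that differs from MT2A in a pairwise alignment. MT2A is the most counted member, MT1G the member with the highest fold change in any line with all libraries fitted, MT1F the member whose groups were apart in all 4 lines, and MT1X the one with the lowest fold change among the members tested in TNBC.
MT2A: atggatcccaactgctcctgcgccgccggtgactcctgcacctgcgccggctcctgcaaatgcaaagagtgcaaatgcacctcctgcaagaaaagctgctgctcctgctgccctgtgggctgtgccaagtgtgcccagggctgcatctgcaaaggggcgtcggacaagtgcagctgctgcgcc
MT1G: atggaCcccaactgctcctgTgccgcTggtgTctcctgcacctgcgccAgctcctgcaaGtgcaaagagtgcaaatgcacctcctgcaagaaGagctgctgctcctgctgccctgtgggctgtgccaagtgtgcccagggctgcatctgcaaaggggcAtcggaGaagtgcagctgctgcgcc
MT1F: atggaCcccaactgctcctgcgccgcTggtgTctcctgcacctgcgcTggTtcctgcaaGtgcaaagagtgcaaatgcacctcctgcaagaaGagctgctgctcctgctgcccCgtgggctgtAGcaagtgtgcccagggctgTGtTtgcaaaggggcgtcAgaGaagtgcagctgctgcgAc
MT1X: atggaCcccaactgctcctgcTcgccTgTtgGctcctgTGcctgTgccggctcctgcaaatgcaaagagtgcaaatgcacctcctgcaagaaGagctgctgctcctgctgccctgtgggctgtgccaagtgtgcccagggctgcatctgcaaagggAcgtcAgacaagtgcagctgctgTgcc
Each coding sequence had 183 bases without the stop codon. MT1G was 95.1% identical to MT2A over these bases, MT1X 92.9% and MT1F 91.3%, and the pair least alike in the family was MT1F and MT1X at 88.5%. Outside the coding part the transcripts differ more. Over 50-base windows of the transcripts, 20.4% of those of MT1H, 19.9% of MT1G, 18% of MT1X, 10.2% of MT2A, 6.1% of MT1F, 5.8% of MT1A, 4.3% of MT1M and 3.4% of MT1E were also found in another metallothionein gene or pseudogene. A read that fell wholly in such a window was counted where the aligner placed its primary alignment, so the split between paralogs is uncertain to that extent. An exon of MT1X also overlaps another annotated gene, and the counting used no strand.

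The bases before the transcription start are shown for the members that the RefSeq promoter table holds, since metal response elements lie there. Capitals mark each match, on either strand, to the metal response element cores TGCACNC and TGCGCNC, in the 250 bases before the RefSeq start on GRCh38.p14. The windows are chr16:56608334-56608583 for MT2A, chr16:56669564-56669813 for MT1H and chr16:56682220-56682469 for MT1X, all on the plus strand.
MT2A: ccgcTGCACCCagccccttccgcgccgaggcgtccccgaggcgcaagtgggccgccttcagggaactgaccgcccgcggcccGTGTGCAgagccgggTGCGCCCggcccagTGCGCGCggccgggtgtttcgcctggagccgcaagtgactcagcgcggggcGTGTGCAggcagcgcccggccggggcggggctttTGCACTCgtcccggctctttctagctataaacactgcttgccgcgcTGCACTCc
MT1H: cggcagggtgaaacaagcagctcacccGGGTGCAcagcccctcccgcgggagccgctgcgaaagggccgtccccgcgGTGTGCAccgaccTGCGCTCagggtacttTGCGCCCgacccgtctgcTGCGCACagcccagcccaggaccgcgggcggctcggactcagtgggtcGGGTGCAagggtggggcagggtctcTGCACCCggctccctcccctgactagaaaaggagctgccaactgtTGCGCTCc
MT1X: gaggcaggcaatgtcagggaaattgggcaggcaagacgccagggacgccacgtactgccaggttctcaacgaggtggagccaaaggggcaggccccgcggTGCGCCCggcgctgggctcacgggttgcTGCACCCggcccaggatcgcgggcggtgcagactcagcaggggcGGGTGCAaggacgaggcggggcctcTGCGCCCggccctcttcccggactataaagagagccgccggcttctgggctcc
MT2A held 7 matches, MT1H 8 and MT1X 4. Neighbouring matches did not overlap in these windows. Of the 35116 promoter windows of the same length in that table, 24.8% held at least 1 match, 0.37% held 4 or more, 0.0313% held 7 or more and 0.0171% held 8 or more, the members included. A match is a stretch of letters, not a shown binding site. MT1A, MT1E, MT1F, MT1G and MT1M have no promoter shown here.

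The libraries of COAD, PAAD and TNBC held 25160757 to 39009959 counts each and those of PRAD 9063968 to 9520969, in a count table of their own that was made with other settings. In the PRAD table no gene exceeded 1 count per exonic base in any library (the highest value was 0.995), while 1356 to 2279 genes did so in each library of the other lines. MT2A reached 0.82 counts per base of its main transcript in PRAD (401 bases, against 1299 exonic bases), and MT1G 0.58 (410 against 750). The limit was seen per exonic base, and whether it holds per base of the main transcript was not tested. No pair of replicates agreed within sampling noise, with chi-square values per degree of freedom of 1.75 to 13.6, so no library was counted as a duplicate. KLK3, KLK2, TMPRSS2 and FOLH1 were present in PRAD, each at 211 CPM or more. VIL1, EPCAM, CDX2 and CDH17 were present in COAD, where KRT20 stayed at or under 4 counts and LGALS4 under 1 CPM. KRT7, KRT17, KRT19, MUC1 and EPCAM were present in PAAD, with SMAD4 at 0. KRT5, KRT14, KRT17 and EGFR were present in TNBC with PGR at 0, TP63 at or under 1.8 CPM and ESR1 at 5.51 to 8.18 CPM. The leukocyte marker PTPRC and the fibroblast marker COL1A2 had at most 6 counts in any library. COL1A1, another collagen gene of fibroblasts, was present in all lines, at 46.5 to 65.4 CPM in PRAD, 14.1 to 18.4 in PAAD, 12.5 to 16.7 in TNBC and 6.18 to 9.88 in COAD, and its part in the results was not tested.

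Untreated COAD, PAAD and TNBC cells, which share a count table, differed strongly in which metallothionein genes they expressed. Levels are counts scaled to a common library size (CPM) by the TMM method over these 9 control libraries together. MT2A averaged 201 CPM ± 20.4 (SD, n = 3) in PAAD, 136 ± 7.35 in TNBC and 69.9 ± 3.58 in COAD, and no library of a line overlapped those of another. MT1E followed the same order, at 64.4 CPM ± 4.85 in PAAD, 19.5 ± 1.41 in TNBC and 8.25 ± 1.03 in COAD. MT1X and MT1F were instead highest in TNBC.

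MT1X averaged 74.4 CPM ± 5.2 (SD, n = 3) in TNBC, 18 ± 2.55 in PAAD and 5.26 ± 0.148 in COAD. MT1F averaged 26.6 CPM ± 0.358 in TNBC, 2.51 ± 0.225 in PAAD and 0.748 ± 0.193 in COAD. MT1G averaged 9.04 CPM ± 0.759 in TNBC, 1.61 ± 0.552 in COAD and 0.634 ± 0.174 in PAAD. In each of these 3 genes the levels of neighbouring lines did not overlap.

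MT1A stood apart, since COAD expressed it and the others hardly did. It averaged 8.38 CPM ± 0.78 (SD, n = 3) in COAD, 0.242 ± 0.144 in PAAD and 0.214 ± 0.142 in TNBC. The difference between the latter pair was -0.17 on the log2 scale (TNBC minus PAAD) with an SE of 0.528, and their libraries overlapped. MT1M was higher in PAAD, at 2.21 CPM ± 0.593, than in TNBC, at 0.677 ± 0.302, and in COAD, at 0.408 ± 0.0654. MT1H was at 0 counts in the 3 COAD libraries, at 2, 6 and 0 counts in PAAD and at 1, 0 and 0 in TNBC. Over all libraries of these lines, Ocoxin included, a count of 0 allows up to 0.119 CPM (3 counts, counting error only). Mates were counted singly in this table, so the true bound may be higher.

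In edgeR's quasi-likelihood test, 7 of the 7 members tested differed between untreated COAD and PAAD, 6 of 7 between COAD and TNBC, with MT1M as the exception (log2 difference 0.72, adjusted p = 0.0903), and 6 of 7 between PAAD and TNBC, with MT1A as the exception (adjusted p = 0.788). MT1A passed the filter on low counts only through its COAD libraries, so it had to differ from COAD. It had at most 12 counts in a control library of PAAD or TNBC. With MT1A left aside, every member tested differed between COAD and PAAD, and all but MT1M between COAD and TNBC. These counts stand against 78.6%, 82.8% and 77.1% of all 19930 genes tested, since the cell lines differ in most genes, so the number of members that differed is near that background. The sizes ranged widely. MT1F was 5.15 higher on the log2 scale in TNBC than in COAD (SE 0.148). MT1A was lower there, with a log2 difference (TNBC minus COAD) of -5.27 (SE 0.301), given as a description because of the filter. The 8 genes summed gave 289 CPM ± 27.9 (SD, n = 3) in PAAD, 267 ± 14.6 in TNBC and 94.5 ± 6.09 in COAD, so that PAAD and TNBC, whose sums differed by -0.12 on the log2 scale (TNBC minus PAAD, SE 0.0669) and overlapped between libraries, reached a like total with a different make-up.

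Per kilobase of main transcript, MT2A was the highest member in the control cells of every line, with 471 CPM per kb in PAAD, 336 in TNBC, 192 in COAD and 62.3 in PRAD. The member in the second place differed. It was MT1E in PAAD (80.9 CPM per kb), MT1X in TNBC (182), MT1A in COAD (23.3) and MT1G in PRAD (32.3). The same members came second when the length of all annotated exons was used. PRAD levels come from the separate table and were compared within that line only.

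**Figure D1:**
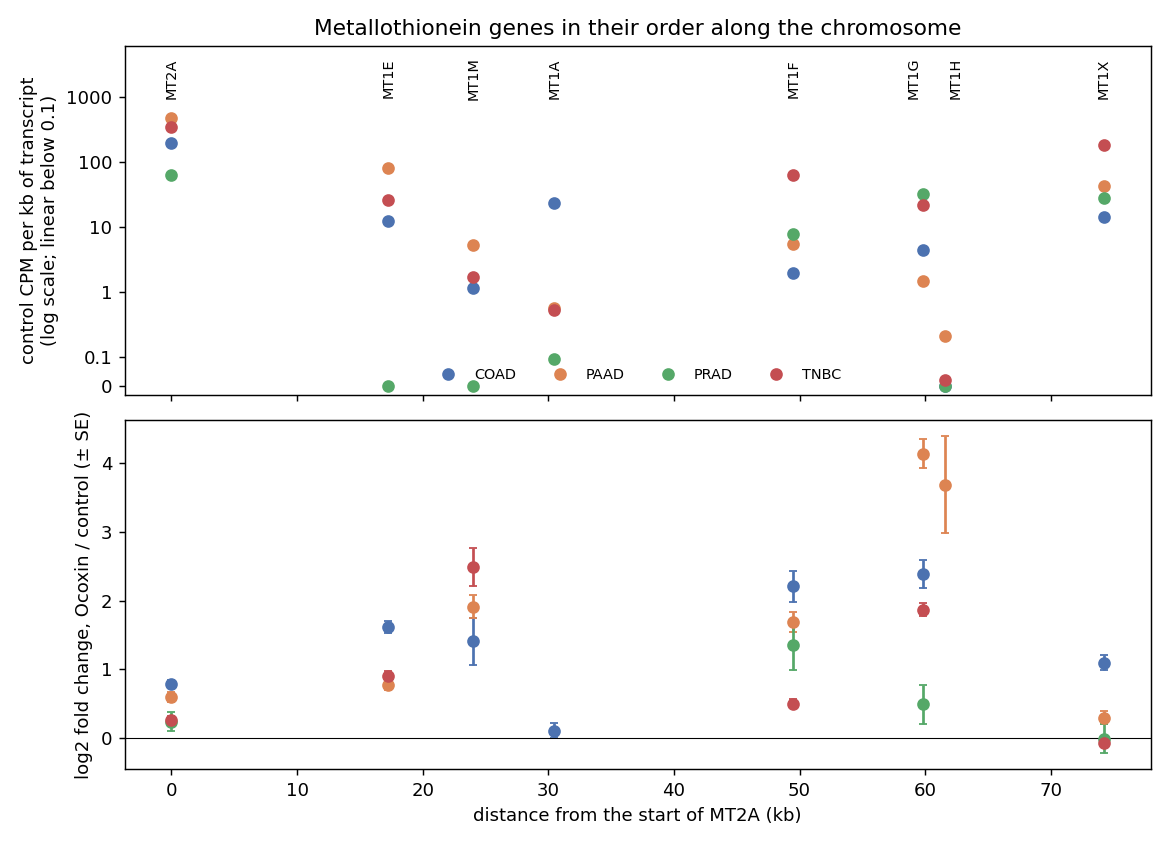
The 8 genes are placed by the distance of their start from that of MT2A in kb. The upper plot gives mean control CPM per kb of transcript in each line on a log scale that is linear below 0.1, with PRAD from a separate count table, and the lower plot gives the log2 fold change with Ocoxin ± SE for each member tested. MT2A is highest in every line, MT1A is high in COAD alone, and 3 of the 4 members tested in PRAD are above 0.

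With Ocoxin, metallothionein transcripts rose in COAD, PAAD and TNBC, calls in PRAD depended on the fit, and none was called lower in any line. A gene was called at an adjusted p under 0.05 over all genes tested in that line with edgeR's quasi-likelihood test. In COAD, 6 of 7 members tested were called higher, against 1.47% of all genes tested. In PAAD 5 of 6 were called higher, against 4.72%, leaving aside MT1H, which passed the filter on low counts only through its Ocoxin libraries and so had to differ (6 of 7 with it). In TNBC 5 of 6 were called higher, against 9.65%. In PRAD 0 of 4 were called higher, against 2.4%, although MT1F had an unadjusted p under 0.05 and DESeq2 called 1 of the 4, also MT1F. With the replicate number as a block 2 of 4 were called in PRAD, MT1F and MT1G, and 6 of 6 in PAAD (7 of 7 with MT1H), where MT1X joined the others.

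No member was called lower in COAD, PAAD, PRAD or TNBC by edgeR, where 1.09%, 3.62%, 0.58% and 11.3% of all genes tested were, and DESeq2 and an unadjusted p under 0.05 also gave 0 in every line. The log2 fold changes of the members tested had a median of 1.41 for COAD, 1.23 for PAAD without MT1H, 0.37 for PRAD and 0.70 for TNBC, beside -0.005, 0.003, 0.009 and 0.006 for all genes tested. In the other lines every member tested would also have passed the filter on its controls alone. Dilutions differed between lines except for COAD and TNBC, so only that pair was tested against each other.

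**Figure D2:**
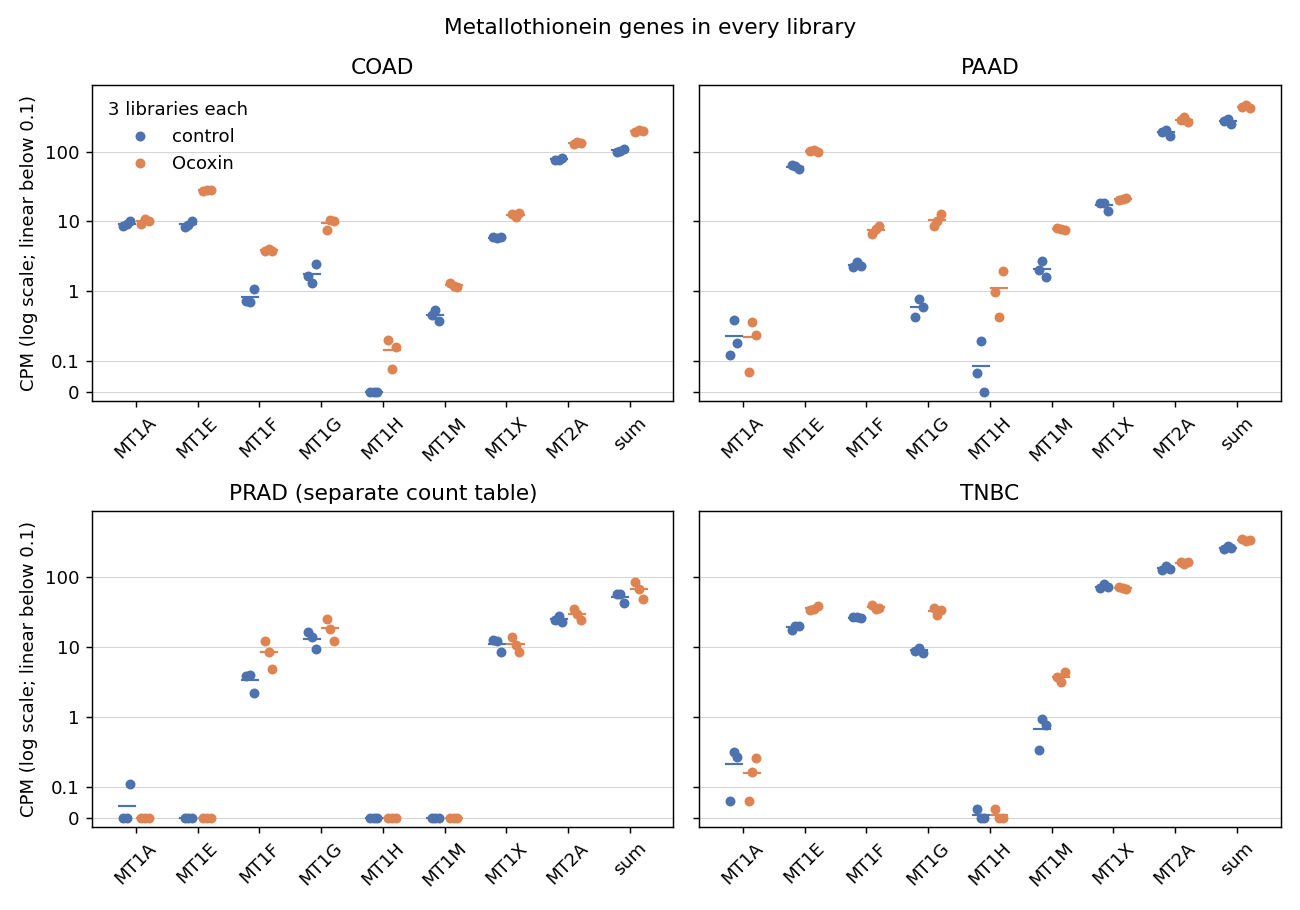
Each point is 1 library, with controls in blue and Ocoxin in orange, and the short lines are means of 3. The CPM axis is a log scale that is linear below 0.1, and the last column of each plot is the sum of the 8 genes. Control and Ocoxin points are apart for MT1F in all 4 lines, and MT1E, MT1H and MT1M lie at 0 in every PRAD library.

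MT2A, the most expressed member, rose moderately. In COAD its control libraries held 74.5, 76.2 and 80.4 CPM (CPM from here on scaled within each line) and its Ocoxin libraries 130, 136 and 134. In PAAD they held 191, 206 and 169 CPM against 281, 309 and 268. In TNBC they held 128, 143 and 133 CPM against 168, 157 and 163. In these lines every Ocoxin library was above every control library. The log2 fold change was 0.79 in COAD (SE 0.0518, edgeR adjusted p = 3.82e-09), 0.60 in PAAD (SE 0.0719, adjusted p = 8.31e-05) and 0.27 in TNBC (SE 0.0464, adjusted p = 0.00151). In PRAD the controls held 24.4, 27.4 and 23.1 CPM and the Ocoxin libraries 35.2, 29.3 and 24, which overlapped, although Ocoxin was higher in each of the 3 same-numbered pairs. The log2 fold change there was 0.24 (SE 0.143, adjusted p = 0.388), and 0.23 with the replicate block (adjusted p = 0.219). It was 0.48 (adjusted p = 0.309) once PRAD counts were corrected for an assumed limit of 1 count per base of the main transcript. That alternative was added after seeing the data.

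MT1X, another widely used isoform, was called in COAD by the main test and in PAAD by some other fits. Its COAD controls held 5.86, 5.67 and 5.87 CPM and its Ocoxin libraries 12.6, 11.4 and 13.2, with a log2 fold change of 1.10 (SE 0.11, edgeR adjusted p = 3.21e-06). In PAAD the controls held 18.3, 18 and 14.2 CPM and the Ocoxin libraries 19.9, 20.8 and 21.5. These did not overlap, yet the log2 fold change of 0.30 (SE 0.0993) had an adjusted p of 0.0755. The call in PAAD depended on the fit, with an adjusted p of 0.00658 with the replicate block, 0.0105 with a length and GC trend removed, 0.0286 with no filter on low counts and 0.0488 with DESeq2. In TNBC, where MT1X was most expressed, 69.3, 79.3 and 72.2 CPM stood against 72.7, 69.7 and 67.9. The groups overlapped there, with a log2 fold change of -0.07 (SE 0.0553, adjusted p = 0.416). In PRAD 12.5, 12.1 and 8.52 CPM stood against 13.7, 10.8 and 8.41, again overlapping, with a log2 fold change of -0.01 (SE 0.212, adjusted p = 0.985) that turned positive without some libraries.

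MT1E, an isoform that many epithelial cells express, rose in the 3 lines that had it. COAD went from 8.23, 8.82 and 10.2 CPM to 27.4, 28.5 and 28.0, PAAD from 63.4, 62.1 and 55.6 to 103, 106 and 99.3, and TNBC from 17.6, 20.1 and 20 to 33.9, 34.8 and 39.1. No control library reached an Ocoxin library in any of them. The log2 fold change was 1.62 in COAD (SE 0.0888, edgeR adjusted p = 2.3e-10), 0.77 in PAAD (SE 0.0645, adjusted p = 1.86e-06) and 0.90 in TNBC (SE 0.0748, adjusted p = 1.21e-05). The 6 PRAD libraries held 0 counts, which allows up to 0.331 CPM.

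MT1F, whose coding sequence is shown above, was the member whose Ocoxin libraries lay above the controls in all 4 lines. In COAD 0.713, 0.701 and 1.06 CPM became 3.72, 3.99 and 3.72, and in PAAD 2.22, 2.60 and 2.25 CPM became 6.53, 7.64 and 8.67. TNBC started higher, at 26.5, 26.5 and 25.9 CPM, and reached 40.1, 34.8 and 36.8. The log2 fold change was 2.21 in COAD (SE 0.225, edgeR adjusted p = 3.85e-06), 1.69 in PAAD (SE 0.151, adjusted p = 3.48e-06) and 0.50 in TNBC (SE 0.063, adjusted p = 0.000193). In PRAD the controls held 3.82, 3.93 and 2.19 CPM and the Ocoxin libraries 12, 8.48 and 4.87. Replicate 3 was the lowest in both PRAD groups. The PRAD log2 fold change of 1.35 (SE 0.357) had an unadjusted p of 0.00571 and an adjusted p of 0.0878. With the replicate block it was 1.34 (adjusted p = 0.00844), with DESeq2 1.34 (adjusted p = 0.0126) and without Ocoxin replicate 3 it was 1.62 (adjusted p = 0.038), so the call in PRAD turned on the fit and on that library.

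MT1G, the member closest to MT2A in sequence, had the largest rise with all libraries fitted, in PAAD. There the controls held 0.431, 0.761 and 0.593 CPM (14, 24 and 20 counts) and the Ocoxin libraries 8.64, 10.1 and 12.8 CPM (270, 334 and 444 counts), a ratio of means of 17.7. The log2 fold change was 4.14 (SE 0.213, edgeR adjusted p = 2.77e-08). COAD rose from 1.62, 1.29 and 2.42 CPM to 7.48, 10.5 and 10.1, by 2.39 on the log2 scale (SE 0.2, adjusted p = 1.78e-06). TNBC rose from 8.88, 9.71 and 8.21 CPM to 36.3, 28.3 and 33.5, by 1.87 (SE 0.0995, adjusted p = 5.19e-07). In PRAD, where MT1G was the second member by level, 16.2, 14.1 and 9.29 CPM stood against 25.4, 18.2 and 12.1 and overlapped. The PRAD log2 fold change was 0.49 (SE 0.289, adjusted p = 0.385), and 0.48 with the replicate block (adjusted p = 0.0339).

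MT1M was low at the start and rose in the 3 lines that expressed it. PAAD went from 1.97, 2.67 and 1.57 CPM to 7.97, 7.86 and 7.48 (log2 fold change 1.91, SE 0.166, edgeR adjusted p = 2.73e-06). TNBC went from 0.338, 0.919 and 0.751 CPM to 3.68, 3.17 and 4.45 (log2 fold change 2.49, SE 0.28, adjusted p = 0.000117). In COAD the controls held 14, 18 and 12 counts and the Ocoxin libraries 39, 32 and 29, or 0.453, 0.526 and 0.373 CPM against 1.30, 1.18 and 1.15. The groups were apart, with a log2 fold change of 1.41 (SE 0.342, adjusted p = 0.0277), but the call was lost without any 1 of the 6 COAD libraries, with adjusted p between 0.0501 and 0.112. PRAD held 0 counts of MT1M in all 6 libraries.

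MT1H was close to absent before treatment. In PAAD it had 2, 6 and 0 counts in the controls and 30, 14 and 66 with Ocoxin, or up to 0.19 CPM against 0.425 to 1.91. It entered the test only through its Ocoxin libraries, so its log2 fold change of 3.69 (SE 0.702) is given as a description, with no p. Single libraries moved that value from 3.01 (without Ocoxin replicate 3) to 5.02 (without control replicate 2), above the 4.35 of MT1G under the same omission. Of its windows 20.4% are shared, among others with MT1G, which rose in the same libraries. In COAD, where it was not tested, 0 counts in each control stood against 6, 2 and 4 counts with Ocoxin. TNBC had at most 1 count in a library and PRAD 0.

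MT1A was not called in any line. Its COAD controls held 8.49, 9.23 and 10.0 CPM and its Ocoxin libraries 9.20, 10.7 and 10.1, which overlapped, with a log2 fold change of 0.11 (SE 0.109, edgeR adjusted p = 0.683). PAAD had 2 to 12 counts per library and TNBC 2 to 12, with overlapping groups, and PRAD had 1 count in all. COAD was also the line where 6 other members rose.

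**Figure D3:**
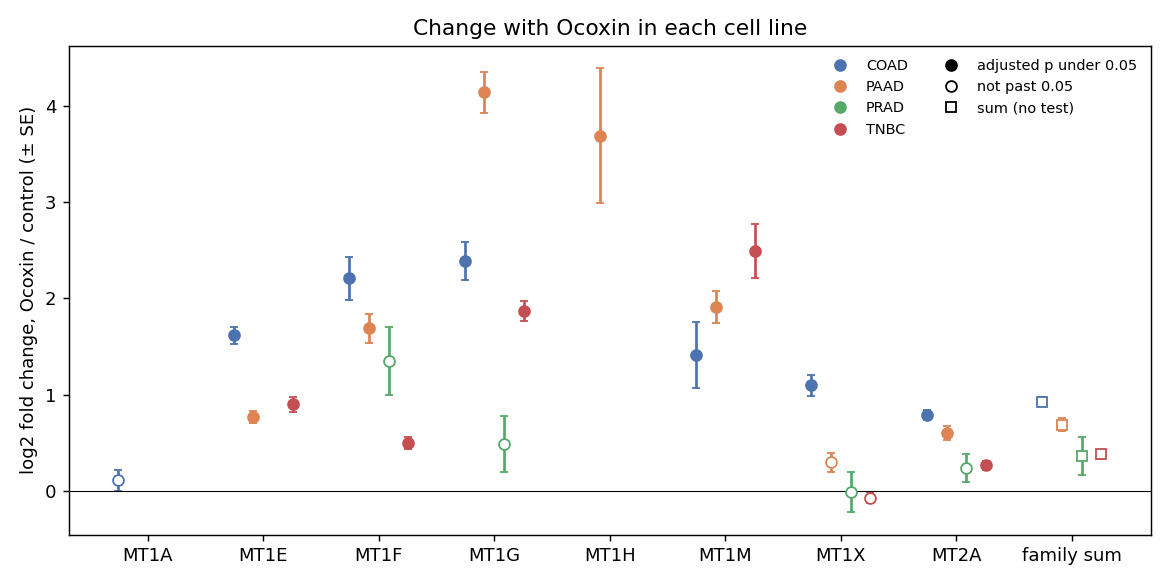
Points are log2 fold changes of Ocoxin over control with their SE in each cell line, filled where the edgeR adjusted p was under 0.05, and squares are the sum of the 8 genes, which was not tested. MT1H in PAAD passed the filter on low counts only through its Ocoxin libraries, so its filled point is not read as a call. MT1G in PAAD, at 4.14, is the highest point, and MT1X in PRAD and TNBC lies at or just under 0.

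The sum of the 8 genes was higher with Ocoxin in the means of every line, and MT2A gave the largest share of its counts. In COAD the sum was 99.9, 102 and 110 CPM in the controls and 192, 203 and 200 with Ocoxin, a log2 fold change of 0.93 (SE 0.0517). In PAAD it was 278, 293 and 244 CPM against 428, 461 and 420, or 0.69 (SE 0.0665), and in TNBC 251, 279 and 260 CPM against 355, 328 and 345, or 0.38 (SE 0.0451). Controls and Ocoxin libraries did not overlap in these lines. In PRAD the sum was 57.0, 57.6 and 43.2 CPM against 86.2, 66.8 and 49.4, which overlapped but was higher with Ocoxin in each same-numbered pair, or 0.36 (SE 0.197). That value dropped to 0.14 when Ocoxin replicate 1 was left out and to 0.21 when control replicate 3 was, and was 0.54 without Ocoxin replicate 3.

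MT2A gave a smaller share of the sum with Ocoxin in the means of every line. MT2A gave 74.0% ± 0.953 (SD, n = 3) of the summed counts in COAD controls and 67.3% ± 0.444 with Ocoxin, 69.6% ± 0.792 and 65.4% ± 1.53 in PAAD, and 51.1% ± 0.0587 and 47.5% ± 0.32 in TNBC. In PRAD it gave 47.9% ± 5.3 and 44.4% ± 3.98. The PRAD groups overlapped, and by replicate number the share went from 42.8% to 40.8%, from 47.6% to 43.8% and from 53.4% to 48.7%. MT1G went the other way. Its share went from 1.69% to 4.71% in COAD, from 0.219% to 2.42% in PAAD and from 3.39% to 9.52% in TNBC, while the share of MT1X in TNBC went from 27.9% to 20.5%. No test was run on these shares. These are shares of counts and are not scaled for length.

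**Figure D4:**
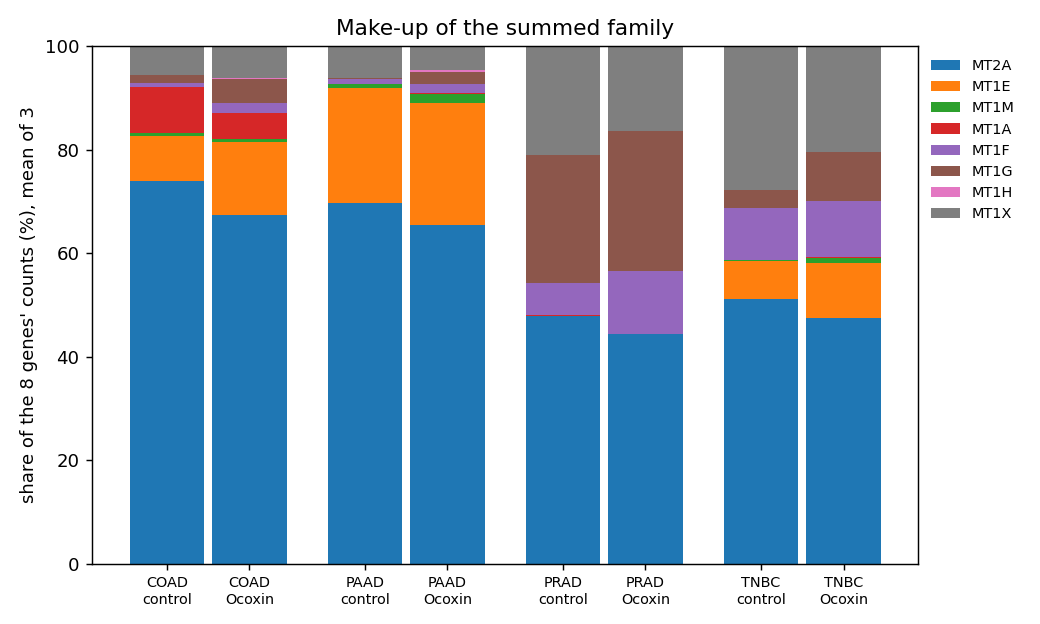
Bars split the summed counts of the 8 genes into percent per member, as the mean of 3 libraries, for control and Ocoxin cells of each line. MT2A is the largest share in every bar, MT1A is visible in COAD alone, and MT1G widens with Ocoxin in COAD, PAAD and TNBC.

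COAD and TNBC received the same dilution, so their responses could be set against each other. The response was larger in COAD for 4 of the 7 members tested in an interaction fit of edgeR, where 10.5% of all 20163 genes tested differed in either direction. The difference (COAD minus TNBC) was 1.72 on the log2 scale for MT1F (SE 0.182, adjusted p = 3.35e-06), 1.18 for MT1X (SE 0.106, adjusted p = 2.35e-07), 0.73 for MT1E (SE 0.123, adjusted p = 0.000491) and 0.53 for MT2A (SE 0.0702, adjusted p = 4.36e-05). Of these 4, MT1F and MT1X were also those with the widest gap in control level between the lines. MT1G differed by 0.54 (SE 0.24, adjusted p = 0.177), MT1M by -1.06 (SE 0.44, adjusted p = 0.134) and MT1A by 0.52 (SE 0.552, adjusted p = 0.63), none past the threshold. MT1A entered this fit only through its COAD libraries. Its 2 to 12 counts per library in TNBC were too few to test there, so its value says little about a difference. The summed family differed by 0.56 (SE 0.07), which was not tested.

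Of the other 13 metallothionein genes and pseudogenes, 2 to 4 had enough counts to be tested in each line. MT1P3, a processed pseudogene on chromosome 20, was called higher in PAAD (1.47 CPM ± 0.279 in controls and 2.50 ± 0.12 with Ocoxin, SD, n = 3, log2 fold change 0.76, edgeR adjusted p = 0.0278). It shares 54.7% of its 50-base windows with other metallothionein genes, MT1E among them. MT1L, a pseudogene between MT2A and MT1E, was at 8.92 CPM ± 0.891 in TNBC controls and 8.80 ± 0.284 with Ocoxin (log2 fold change -0.02, adjusted p = 0.92). Adding all 13 to the sum left its log2 fold change within 0.02 of the value above in every line.

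Few genes that handle zinc were called. The list held 25 genes, namely MTF1, 10 of the ZnT family (SLC30A1 to SLC30A10) and 14 of the ZIP family (SLC39A1 to SLC39A14). Of these edgeR tested 19 to 22 in a line. It called 1 higher and 1 lower in COAD, 2 and 1 in PAAD, 0 and 1 in PRAD, and 3 and 2 in TNBC. In PRAD 3 had an unadjusted p under 0.05 in each direction, and DESeq2 called 1 higher. Of all genes tested, 1.47% were called higher and 1.09% lower in COAD, 4.72% and 3.62% in PAAD, 2.4% and 0.58% in PRAD, and 9.65% and 11.3% in TNBC, so the TNBC counts are near that background and the others rest on 1 or 2 genes. The list's median log2 fold change lay between -0.01 and 0.01. SLC39A10, which brings zinc into the cell, fell in every line, by 0.81 on the log2 scale in COAD (adjusted p = 1.69e-08), by 1.48 in PAAD (adjusted p = 3.81e-07), by 0.68 in PRAD (adjusted p = 0.0327) and by 0.81 in TNBC (adjusted p = 3.77e-05). SLC30A1, which carries zinc out across the plasma membrane, rose by 0.41 in COAD (adjusted p = 0.000175), 0.36 in PAAD (adjusted p = 0.00405) and 0.56 in TNBC (adjusted p = 2.19e-05), and its value in PRAD was 0.55 (adjusted p = 0.0746). The mRNA of MTF1 itself rose in PAAD, by 0.24 (adjusted p = 0.031), and had values of -0.15 in COAD, 0.17 in PRAD and 0.13 in TNBC that did not pass the threshold.

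Some targets of NRF2, the transcription factor of the oxidant response, rose in each line. Of 10 such genes edgeR called 3 of 10 tested higher in COAD, 6 of 10 in PAAD, 7 of 8 in PRAD and 7 of 8 in TNBC, and none lower by edgeR, by DESeq2 or at an unadjusted p under 0.05, beside the 1.47%, 4.72%, 2.4% and 9.65% of all genes. NQO1, a quinone reductase, and TXNRD1, a thioredoxin reductase, rose in all 4 lines, with log2 fold changes of 0.21 and 0.25 in COAD, 0.26 and 0.65 in PAAD, 0.80 and 0.25 in PRAD, and 0.11 and 0.28 in TNBC. HMOX1, the heme oxygenase, rose by 0.74 in COAD, 1.82 in PRAD and 0.31 in TNBC, with 0.69 in PAAD (adjusted p = 0.0521). SLC7A11, the cystine transporter, rose in PAAD, PRAD and TNBC, by 0.60, 0.75 and 0.70. The same number of NRF2 targets was called in PRAD and TNBC, which differed in dilution, count table and depth. Any link between these genes and the metallothioneins was not tested.

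Calls among glucocorticoid-induced genes differed between lines. Of 8 such genes, edgeR called 2 of 7 tested higher and 0 lower in COAD, and likewise 2 of 7 higher and 0 lower in PAAD. It called 1 higher and 3 lower of 7 in TNBC, and 0 of 8 in PRAD. Among all genes 1.47% were called higher and 1.09% lower in COAD, 4.72% and 3.62% in PAAD, 9.65% and 11.3% in TNBC, and 2.4% and 0.58% in PRAD. In PRAD DESeq2 also called 0, and 2 were higher and 3 lower at an unadjusted p under 0.05. No gene of this list was called in the same direction in 3 lines.

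The genes whose level followed the summed family most closely were sought over the 24 libraries, with log2 CPM centred within each line, by Pearson's r over 13337 genes. The 6 libraries of a line share its treatment contrast, so r is largely set by that contrast and is given as a description. SESN2, a stress-induced sestrin, came first with r = 0.911, followed by SMPD1 (0.891), SELENOW (0.887), ADM2 (0.874), WDR45 (0.851), ABHD4 (0.85), SQSTM1 (0.846), ZFYVE1 (0.846), BSDC1 (0.83) and ARSD (0.813), and 14 genes had r over 0.8. Within TNBC alone r was 0.37 for SMPD1, whose log2 fold change there was 0.05 (edgeR adjusted p = 0.685), and 0.59 for ARSD. The rest of the named genes had r of at least 0.65 within every line. SELENOW, a small selenoprotein, rose by 1.18 on the log2 scale in COAD (edgeR adjusted p = 2.09e-11), 1.07 in PAAD (adjusted p = 2.77e-08) and 0.96 in TNBC (adjusted p = 4.53e-08), with 0.17 in PRAD (adjusted p = 0.161). SESN2 rose by 0.87 in COAD, 0.41 in PAAD and 0.49 in TNBC, with 0.39 in PRAD (adjusted p = 0.0764).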

How the data were processed

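RNA libraries of 4 cell lines were compared, 3 control and 3 Ocoxin libraries each. According to the study's methods the authors used fastp for adapter trimming, STAR for alignment (hg38), picard for the removal of duplicates and featureCounts for counts on exons (version 2.0.3 per the file headers). The deposited values are raw counts per gene without normalization. Both tables counted primary alignments, multi-mapping reads included, without strand. The COAD, PAAD and TNBC table was made with the paired-end option but counted mates, not pairs, and the PRAD table without that option, so levels were not compared between tables. The 37 mitochondrial genes had no counts.

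From the counts, edgeR 4.0.16 in R 4.3.3 (filterByExpr, TMM, robust quasi-likelihood F-test, two-sided, Benjamini-Hochberg over all genes tested) was fitted per line on 6 libraries, on the 12 COAD and TNBC libraries for the interaction, and on the 9 control libraries of the shared table. It was tested on simulated data. The sum of the 8 genes was fitted as 1 feature, with no p. Gene coordinates come from the count tables, and transcript lengths and coding sequences from GENCODE; for MT1E the coding transcript nearest in length to MT2A was used. Promoters come from RefSeq (GRCh38.p14), which had 3 of the 8 members.

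Replicate numbers in the titles are shared by control and Ocoxin libraries. Over genes with a mean CPM of at least 10, deviations from the group mean of same-numbered libraries correlated at 0.31 to 0.62 in PAAD, 0.18 to 0.6 in PRAD and 0.29 to 0.63 in TNBC, but at only 0.08 for replicate 2 of COAD. Libraries of different numbers reached at most 0.21 in PAAD and 0.14 in PRAD, but 0.35 in TNBC, above 2 of its 3 same-number values. The numbers were therefore taken to pair libraries in PAAD and PRAD, as a hint from the data. TNBC was treated alike, although its correlations do not set same-numbered libraries apart. Over all genes tested, no line had all 3 correlations over 0.1. Each alternative changed 1 choice, except the trend removal with the replicate block, which changed 2. The named members were all 8 genes of the family, and other genes were named by call in 3 or more lines or by likeness to the sum. Values of some genes these rules would name are not reported here. The members, gene lists and alternatives were chosen with earlier results of these data known, and the correction of the PRAD counts for removed reads of the same start (minus the transcript length times the natural log of 1 minus counts per base) was added after seeing the data.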

Additional observations from a re-analysis of the deposited data

Results flagged for a closer look

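The response to Ocoxin differed between COAD and TNBC, at the same dilution, in the edgeR interaction fit for 4 members. The difference in log2 fold change, COAD minus TNBC, was 0.73 for MT1E, 1.72 for MT1F, 1.18 for MT1X and 0.53 for MT2A. All 3 Ocoxin libraries of COAD were above all 3 controls for each of these genes. In TNBC this held for MT1E, MT1F and MT2A, but not for MT1X. The control level of each of the 4 genes was lower in COAD than in TNBC, and the part of that level in the difference was not tested.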

How the results depend on the processing

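The 12 counts of members and sums of the family were recomputed under other settings, which left 156 such values on the same side and moved 9. In PRAD, where the main count of members called higher was 0, it became 1 with DESeq2, 1 with all 24 libraries in 1 fit, 1 with a length and GC trend removed, 2 with the replicate block and 2 with the trend removed and the replicate block. Leaving out 1 library gave 0 to 1 there, 5 to 5 in COAD, 6 to 6 in PAAD and 5 to 5 in TNBC. Leaving MT2A out of the sum raised its log2 fold change to 1.25 in COAD, 0.87 in PAAD and 0.48 in TNBC, by construction, since MT2A rose less than the rest. Correcting the PRAD counts for removed reads of the same start, added after seeing the data, gave a sum of 0.51. MT1X in PRAD, at -0.01, ranged from -0.2 to 0.15 when 1 library was left out, and was positive without control replicate 1 (0.09) or 2 (0.05), or Ocoxin replicate 3 (0.15). The cause was not tested.

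The replicate block (pairing by number) changed no call in COAD or TNBC, where the counts stayed at 6 and 5, and left the COAD and TNBC interaction at 4 members; in PAAD it added MT1X, for 7. The PAAD counts include MT1H, which passed the filter only through its Ocoxin libraries. DESeq2 gave 5 in COAD, with no adjusted p for MT1M. PRAD libraries held at most 9520969 counts, with up to 0.82 counts per base of the main transcript for MT2A, and the effect of depth on the PRAD calls was not tested.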
